A study of Mus musculus with 6 samples.

Results

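The genes described here encode enzymes and partner proteins that write, maintain and remove DNA methylation, chosen by symbol: Dnmt1, Dnmt3a, Dnmt3b, Dnmt3l, Uhrf1, Tet1, Tet2, Tet3 and Tdg. All 9 were found, each as 1 row, among the 34745 genes of the table. RNA sequencing had given 3 libraries of P19 cells labelled as treated with peptide PDTLN1 and 3 labelled as untreated. P19 is an established mouse embryonal carcinoma line that can form cardiac and neural cells, and all 6 libraries came from this 1 line, grown in serum-containing medium. The titles of the treated libraries carry a code that is not explained, and the labels state neither dose nor duration. They do not name separate cultures either, so a p-value here reflects only how far these libraries differ among themselves, which may be technical.

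Methylation of cytosine in CpG dinucleotides is laid down de novo by Dnmt3a and Dnmt3b, which the catalytically inactive partner Dnmt3l stimulates. Dnmt1 copies the pattern to the new strand at replication, and Uhrf1 recruits it by binding hemimethylated CpG. The Tet enzymes oxidise 5-methylcytosine, and the glycosylase Tdg excises the most oxidised products so that base excision repair can restore cytosine. In mouse, pluripotent cells are known for high Dnmt3b and Tet1 and somatic cells for less of both.

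Total gene counts were 10381307 to 11663081 in PDTLN1 libraries and 10450134 to 11177756 in control libraries. All 8 pluripotent cell markers were detected, and their summed level was 2528 to 2622 CPM (counts scaled to library sizes adjusted by edgeR's TMM factors) in PDTLN1 libraries and 2672 to 2777 CPM in control libraries. Pou5f1 and Lin28a held most of that sum. On average Pou5f1 had 1353.4 CPM in PDTLN1 and 1464.5 CPM in control libraries, and Lin28a 911.1 CPM in PDTLN1 and 918.3 CPM in control libraries. The extraction text speaks of retinas. Of 10 retinal markers, Crx, Arr3 and Opn1sw had 0 counts in all libraries, which allows 0.256 to 0.290 CPM (3 counts per library), and all 10 together reached 1.65 to 3.84 CPM in PDTLN1 libraries and 3.26 to 3.75 CPM in control libraries. Of 12 markers of P19 derivatives, the mesoderm gene T held most of the sum, with 161 CPM in PDTLN1 libraries and 166 CPM in control libraries on average. In bulk RNA, fewer cells of a type and less RNA per cell cannot be told apart.

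The start regions of these genes differ in their content of CpG, the dinucleotide in which cytosine is methylated. The windows shown are RefSeq promoters of the mouse build GRCm38.p6, each from 250 bases before to 50 after an annotated start, on the strand of the gene. All 9 genes matched, with 16 windows, since some have several starts, and the start used in these cells is not known from gene counts. The Dnmt3b window, chr2:153649199-153649498 (plus strand), held 30 CpG, more than 88.3% of the 32851 windows of all genes. The 3 Dnmt3l windows on chromosome 10 held 6, 4 and 3 CpG, against a median of 7 over all windows; the first is chr10:78042037-78042336 (plus strand). Tet2 had the most, 57, and Dnmt3a had 46, 47 and 18. CpG content and level did not share 1 order. Per gene length Tet2 ranked 8 of the 9 in level, and Dnmt3a ranked 4, below Dnmt3b at 3. The next 2 sequences are the Dnmt3b window and the first Dnmt3l window, with each CpG in capitals.
Dnmt3b: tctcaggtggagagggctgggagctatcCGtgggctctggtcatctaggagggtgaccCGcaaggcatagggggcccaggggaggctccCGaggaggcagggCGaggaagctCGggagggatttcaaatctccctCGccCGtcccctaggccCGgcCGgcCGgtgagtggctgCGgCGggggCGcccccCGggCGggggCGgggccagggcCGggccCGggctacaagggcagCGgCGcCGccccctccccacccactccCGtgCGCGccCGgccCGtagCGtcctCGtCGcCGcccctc
Dnmt3l: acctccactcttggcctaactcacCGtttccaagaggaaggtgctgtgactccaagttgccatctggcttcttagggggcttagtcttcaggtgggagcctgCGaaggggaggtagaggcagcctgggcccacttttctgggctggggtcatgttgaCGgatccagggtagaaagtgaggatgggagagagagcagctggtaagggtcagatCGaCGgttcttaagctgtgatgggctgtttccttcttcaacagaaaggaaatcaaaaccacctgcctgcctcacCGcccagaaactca

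Dnmt1 and Uhrf1, the replication-coupled pair, were the 2 members with an E2F-type octamer. E2F factors drive S phase genes. The octamers searched on both strands were TTTCCCGC, TTTCGCGC, TTTGCCGC and TTTGGCGC, and 744 of the 32851 windows (2.26%) held at least 1. In 1 of 3 Dnmt1 windows, chr9:20952574-20952873 (minus strand), TTTCGCGC lay on the opposite strand and TTTGGCGC on the strand of the gene. In 1 of 2 Uhrf1 windows, chr17:56304063-56304362 (plus strand), TTTCGCGC lay on the strand of the gene. Each octamer contains CpG, and both windows with a match were rich in it, with 33 CpG each, more than 91.4% of windows. The share of matches among windows equally rich in CpG was not computed. No match overlapped another, and a match of letters does not show a bound site. The octamers are in capitals, as read on the strand of the gene.
Dnmt1: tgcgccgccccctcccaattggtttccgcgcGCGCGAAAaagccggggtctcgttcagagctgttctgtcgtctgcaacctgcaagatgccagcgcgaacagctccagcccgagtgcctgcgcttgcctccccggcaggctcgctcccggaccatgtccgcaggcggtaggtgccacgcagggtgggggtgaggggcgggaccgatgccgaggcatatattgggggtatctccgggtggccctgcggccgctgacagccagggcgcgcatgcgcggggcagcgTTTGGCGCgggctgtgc
Uhrf1: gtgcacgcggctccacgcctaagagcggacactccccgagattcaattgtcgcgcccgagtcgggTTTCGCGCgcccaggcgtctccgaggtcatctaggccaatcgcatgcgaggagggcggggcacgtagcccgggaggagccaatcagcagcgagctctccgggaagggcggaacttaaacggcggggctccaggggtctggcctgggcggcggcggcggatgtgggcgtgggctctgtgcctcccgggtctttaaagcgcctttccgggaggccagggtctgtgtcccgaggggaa

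Per gene length, the maintenance pair and Dnmt3b stood at the top and Dnmt3l at the bottom. On the authors' FPKM scale (which divides counts by gene length and by the size of the library), Dnmt1 averaged 77.8 ± 2.02 in PDTLN1 libraries and 76.9 ± 1.89 in control libraries, and Uhrf1 62.7 ± 4.57 in PDTLN1 and 64.7 ± 3.21 in control libraries (SD, n = 3 each). Dnmt3b followed at 35.4 ± 2.78 FPKM in PDTLN1 and 39.1 ± 1.57 FPKM in control libraries, and Dnmt3a at 13.1 ± 0.325 FPKM in PDTLN1 and 13.4 ± 0.283 FPKM in control libraries. Tet1, at 5.71 ± 0.842 FPKM in PDTLN1 and 5.26 ± 0.731 FPKM in control libraries, was the highest of the Tet genes. Tet3 averaged 2.94 FPKM after PDTLN1 and 2.88 FPKM in controls, and Tet2 1.608 FPKM after PDTLN1 and 1.501 FPKM in controls. Dnmt3l averaged 0.235 ± 0.0683 FPKM in PDTLN1 and 0.404 ± 0.0884 FPKM in control libraries, and 4.95% of tested genes had a lower mean FPKM, where 96.5% lay below Dnmt1.

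The order of neighbours depended on the gene length used. The lengths implied by the authors' counts and FPKM exceeded the merged exons of GENCODE M21 by a median factor of 1.22 over tested genes; the factor was 1.87 for Tet1 and 0.865 for Dnmt1. Per kilobase of merged exons, with counts scaled to library totals without TMM factors, Uhrf1 (74.8 to 84.7 over the 6 libraries) came first, and Dnmt1 (64.8 to 68.5) and Dnmt3b (57.5 to 72.1) overlapped. Dnmt3a was next at 22.3 to 23.8. Tet1 (8.52 to 11.6) and Tdg (7.66 to 12.9) overlapped, as did Tet3 (2.93 to 3.92) and Tet2 (2.54 to 3.00). Dnmt3a and Dnmt3l overlapped no neighbour on either scale. On merged exons the Dnmt3b level was 2.57, 2.92 and 2.65 times that of Dnmt3a in PDTLN1 libraries 1 to 3, and 3.03, 2.84 and 2.93 times in control libraries 1 to 3. The ratio ran lower in PDTLN1 libraries 1 and 3 than in any control library, and the groups overlapped. Tet1 made up 59.3% to 66.9% of the summed Tet level in PDTLN1 libraries and 59.3% to 65.1% in control libraries on that scale, and by the authors' FPKM 51.9% to 59.7% in PDTLN1 and 52.0% to 57.3% in control libraries.

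**Figure D1:**
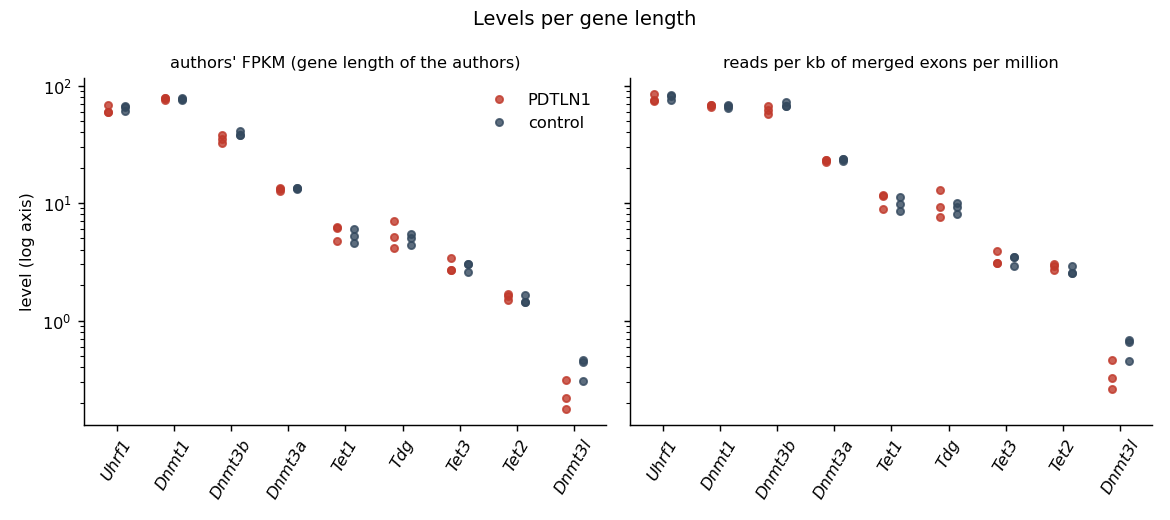
Levels of the 9 genes per gene length on a log axis, 1 point per library, PDTLN1 in red and left of control in dark blue; the left panel uses the authors' FPKM, the right panel merged exons. Dnmt1, Uhrf1 and Dnmt3b lie at the top and Dnmt3l at the bottom in both, and Uhrf1 and Dnmt1 trade places.

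The comparison of PDTLN1 with control asked whether the peptide alters expression of these genes. Gene positions are those of the deposited table, and equal those of GENCODE M21 (GRCm38) for all but Dnmt1 and Tet1, which differ at 1 end. None of the 9 passed. In edgeR's quasi-likelihood test 0 of 9 had an adjusted p under 0.05, with values of 0.989 to 0.992, where 0.0217% of the 13836 tested genes (3 genes) did. At an unadjusted p under 0.05 there was 1 of 9, Dnmt3l, against 3.99% of all tested genes, and DESeq2 gave 0 of 9 at either level. DESeq2 called 0.112% of the 12491 genes to which it gave an adjusted p (14 genes), Dnmt3l not among them, and 2.65% of genes had an unadjusted DESeq2 p under 0.05. All 9 passed the filter on low counts. Log2 fold changes were above 0 for 5 genes and below 0 for 4, with a median of 0.01, beside 0.00 over all tested genes. On TMM-scaled CPM the groups did not overlap for 1 of 9, Dnmt3b, against 9.79% of all tested genes, and with library totals alone Dnmt3b overlapped too.

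**Figure D2:**
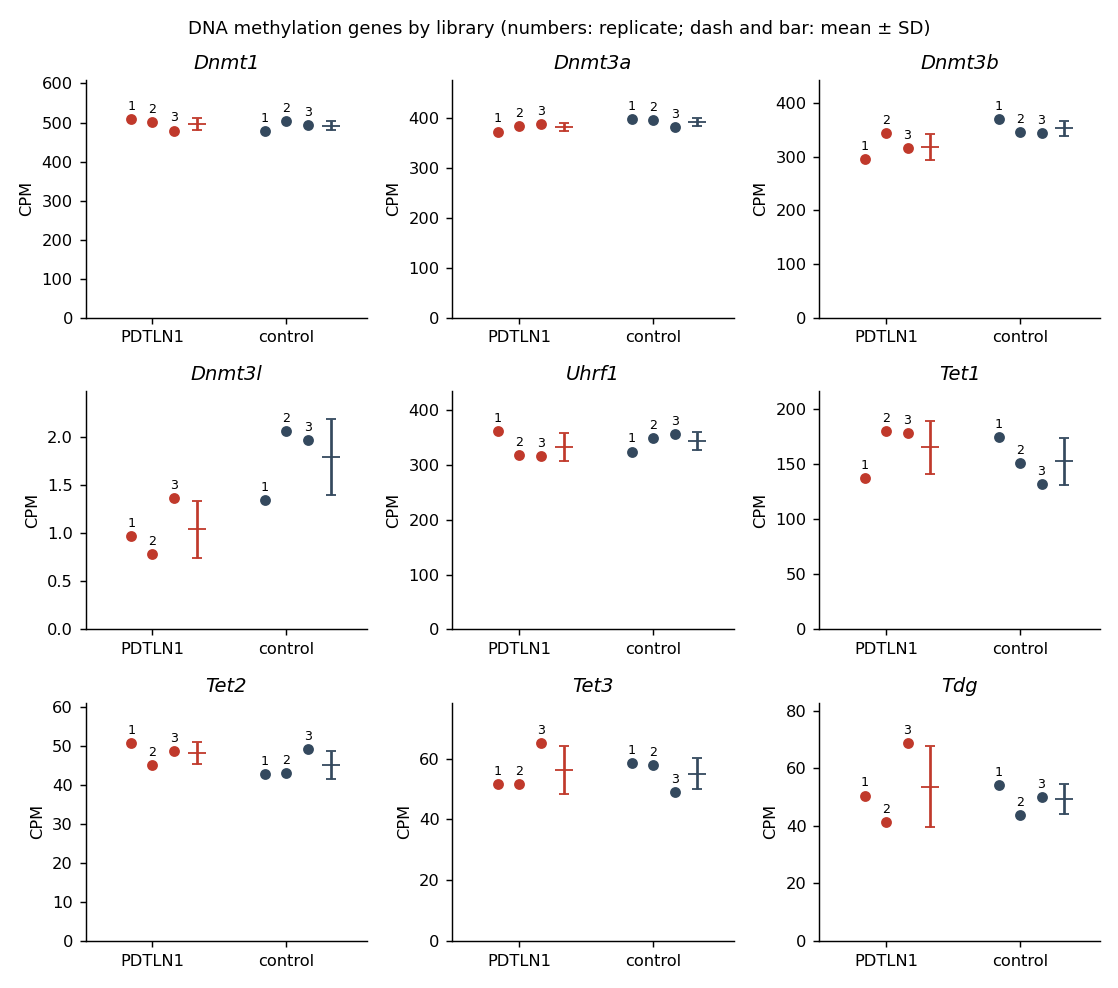
CPM of each gene in every library (points, numbered by replicate), with the mean and SD beside them; each panel has its own axis from 0. Dnmt1 and Dnmt3a are nearly flat, Dnmt3b is the 1 gene with no overlap between PDTLN1 and control on this TMM scale, and PDTLN1 library 3 is the highest library for Tdg and Tet3.

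Dnmt1 (chr9:20907206-20959888, minus strand), the maintenance methyltransferase, had 508, 502 and 480 CPM in PDTLN1 libraries 1 to 3, against 479, 503 and 494 CPM in control libraries 1 to 3. The groups overlapped throughout. Its log2 fold change was 0.01 with an SE of 0.05, and the 95% interval of the fold ran from 0.932 to 1.09. Uhrf1 (chr17:56303321-56323486, plus strand), its recruiter, had 363, 319 and 317 CPM in PDTLN1 libraries, against 325, 349 and 358 CPM in control libraries. PDTLN1 library 1 was the highest of all 6 and the other PDTLN1 libraries the lowest, so the log2 fold change of -0.05 (SE 0.07) averaged over opposite deviations. The fold interval of Uhrf1 was 0.870 to 1.08.

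Dnmt3a (chr12:3806007-3914443, plus strand), a de novo enzyme, had 374, 384 and 389 CPM in PDTLN1 libraries, against 398, 397 and 383 CPM in control libraries. The log2 fold change was -0.04 with an SE of 0.05, and the fold interval 0.902 to 1.05. Dnmt1 and Dnmt3a were among the steadiest genes of these libraries: the SD of log2 CPM over all 6 was 0.0361 and 0.0343, and 1.81% and 1.48% of the 9929 genes with at least 10 CPM had a smaller one. The median was 0.123. Genes with more counts carry less counting noise, which sets part of this order.

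Dnmt3b (chr2:153649450-153687730, plus strand), the de novo enzyme prominent in pluripotent cells, had 294.9, 343.7 and 316.0 CPM in PDTLN1 libraries, against 369.3, 345.2 and 344.0 CPM in control libraries. The groups did not overlap, but PDTLN1 library 2 lay just under control library 3, and the order turned without TMM factors. Per kilobase of merged exons, PDTLN1 library 2 had 67.27 and control library 3 had 67.25, and by the authors' FPKM PDTLN1 library 2 had 38.19 and control library 3 had 38.18. The log2 fold change was -0.15 with an SE of 0.07, an unadjusted p of 0.0524 and an edgeR adjusted p of 0.989. Without PDTLN1 library 1 it was -0.10. The fold interval was 0.812 to 1.00. Dnmt3c, a rodent germline copy of Dnmt3b that matched it at 93.9% over 1434 bases, had 2 counts in PDTLN1 library 3 and 0 in every other library.

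Dnmt3l (chr10:78041947-78063622, plus strand) was counted in every library but at the edge of detection, with 10, 9 and 16 reads in PDTLN1 libraries, against 14, 22 and 22 in control libraries. That is 0.968, 0.782 and 1.37 CPM after PDTLN1, against 1.34, 2.06 and 1.97 CPM in controls. PDTLN1 library 3 and control library 1 overlapped. The log2 fold change was -0.78 with an SE of 0.34, an unadjusted p of 0.0486 and an edgeR adjusted p of 0.989, and the fold interval ran from 0.341 to 0.996. The unadjusted p was above 0.05 without PDTLN1 library 1 or 2, without control library 2 or 3 and without both libraries numbered 1. It was also above 0.05 with the replicate block, with the first principal component as a covariate, with no filter beyond a count in 1 library and with DESeq2 (0.134). Dnmt3l shares 67 exonic bases with Aire on the other strand, which had 0 to 3 counts. How the counting treated strand is not given in the sources used here.

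**Figure D3:**
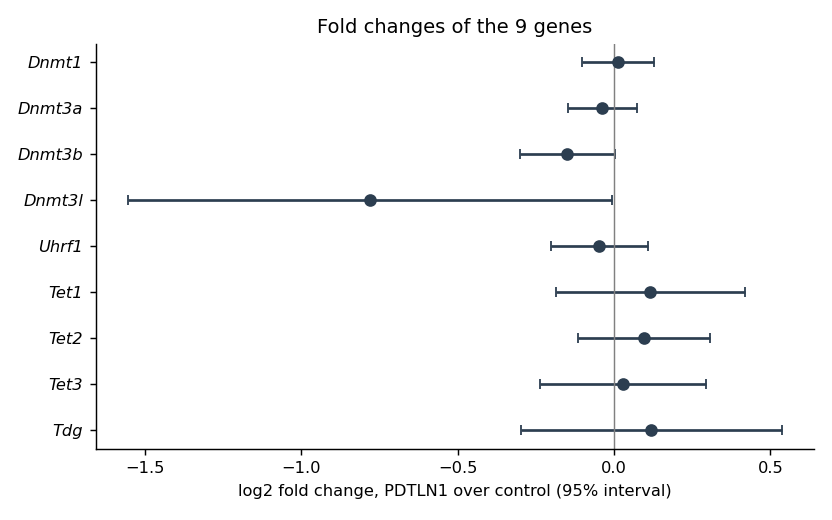
Log2 fold changes of PDTLN1 over control for the 9 genes, with 95% intervals from the edgeR fit (points and horizontal bars). Dnmt1 and Dnmt3a have the narrowest intervals, Dnmt3l the widest, and the intervals of Dnmt3b and Dnmt3l end close to 0.

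Tet1 (chr10:62804570-62899118, minus strand), the main 5-methylcytosine oxidase of pluripotent cells, had 138, 180 and 178 CPM in PDTLN1 libraries, against 174, 151 and 132 CPM in control libraries. The groups overlapped widely, with control library 1 among the high libraries and PDTLN1 library 1 among the low. Its log2 fold change was 0.12 with an SE of 0.13, and the fold interval 0.879 to 1.34. With 1 library left out it lay between 0.02, without control library 3, and 0.23, without PDTLN1 library 1. Tet2 (chr3:133463679-133545139, minus strand) had 50.9, 45.1 and 48.7 CPM after PDTLN1, against 42.9, 43.1 and 49.3 CPM in controls, a log2 fold change of 0.10 (SE 0.09.) Tet3 (chr6:83362373-83459084, minus strand) had 51.6, 51.5 and 65.3 CPM after PDTLN1, against 58.4, 57.8 and 49.0 CPM in controls. Its log2 fold change of 0.03 (SE 0.12) rested on PDTLN1 library 3 and was below 0 without it. Genes that overlap Tet2 or Tet3 and are in the table had 0 to 2 counts; those at Tet1 were not analysed here.

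Tdg (chr10:82629828-82650799, plus strand), the glycosylase that completes removal, had 50.5, 41.2 and 68.9 CPM in PDTLN1 libraries, against 54.0, 43.8 and 50.1 CPM in control libraries. The log2 fold change was 0.12 with an SE of 0.18, and it was below 0, at -0.11, without PDTLN1 library 3. Tdg counts are uncertain because a processed pseudogene, Tdg-ps, matched it at 98.7% over 2968 bases and was counted separately. The processed pseudogenes Gm9855, at 99.2% over 1194 bases, and Gm5597, at 99.3% over 1193 bases, were not analysed here, so sums and shares of Tdg and Tdg-ps leave them out. Tdg-ps had 64.8, 63.2 and 67.6 CPM in PDTLN1 libraries, against 63.2, 67.4 and 69.5 CPM in control libraries, so more reads were assigned to the pseudogene than to Tdg in 5 of 6 libraries. The pair summed to 115, 104 and 137 CPM after PDTLN1, against 117, 111 and 120 CPM in controls. The share of the pair counted as Tdg was 50.5% in PDTLN1 library 3 and 39.4% to 46.1% in the others. How reads with several matches were counted is not given in the sources used here. Uhrf1 also has a processed pseudogene, Gm5648, at 98.3% over 1590 bases, which was not analysed here.

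**Figure D4:**
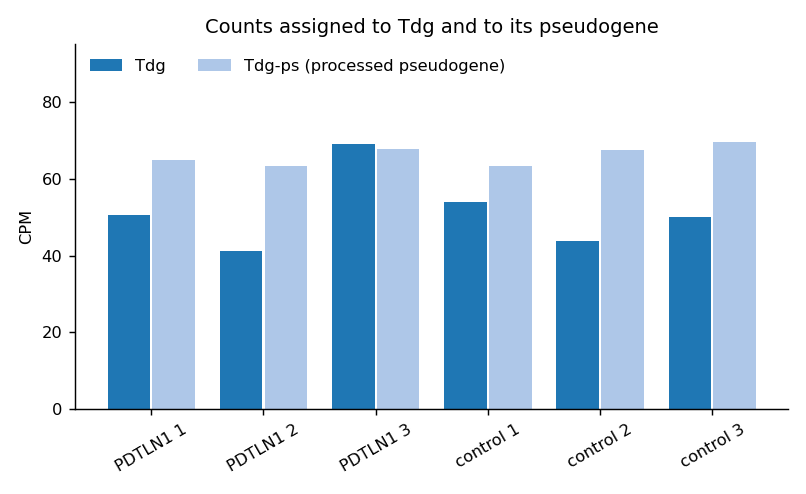
CPM assigned to Tdg and to its processed pseudogene Tdg-ps in each library. Tdg-ps stays between 63.2 and 69.5 CPM, while Tdg ranges from 41.2 to 68.9 CPM and is highest in PDTLN1 library 3.

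Tet1 and Uhrf1 varied in opposite directions along a split of the libraries that crossed the treatment labels. PDTLN1 libraries 2 and 3 and control library 1 had the higher Tet1 and lower Uhrf1; PDTLN1 library 1 and control libraries 2 and 3 had the reverse. The first principal component of all tested genes, which held 35.0% of the variance, put the libraries in the same 2 sets, at 18.3, -23.5 and -11.7 for PDTLN1 libraries 1 to 3 and -17.0, 14.2 and 19.8 for control libraries 1 to 3. The 14 genes of the ATF4 amino acid response, a stress programme, averaged 0.53, -0.58 and -0.29 log2 units around their mean in PDTLN1 libraries 1 to 3, and -0.46, 0.26 and 0.54 in control libraries 1 to 3. Both genes were singled out among the members after their values were seen. The share of all tested genes with the same split was not computed. The part of this split in the values of Tet1 and Uhrf1 was not tested.

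Zfp57, a KRAB zinc finger protein that binds methylated imprinting control regions and recruits Trim28 and DNA methyltransferases, followed the same split, and was singled out after its values were seen. It had 103, 34.7 and 40.5 CPM in PDTLN1 libraries, against 32.5, 93.3 and 106 CPM in control libraries. The low libraries were thus PDTLN1 libraries 2 and 3 and control library 1. Its log2 fold change was -0.38 with an SE of 0.66. Trim28, named for this contrast, ran from 595 to 681 CPM and Dnmt1 from 479 to 508 CPM over the same libraries. Mbd6, of the methyl-CpG-binding domain family and chosen in the same way, had 85.0, 149 and 125 CPM in PDTLN1 libraries, against 154, 137 and 89.0 CPM in control libraries, lowest in PDTLN1 library 1 and control library 3.

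**Figure D5:**
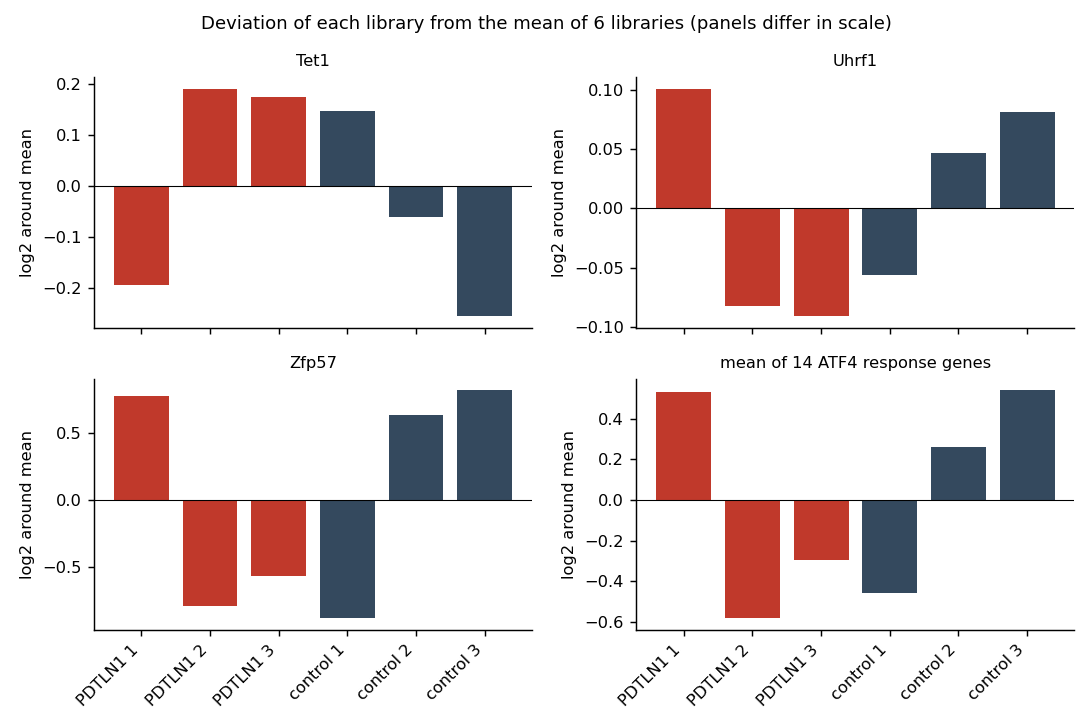
Log2 deviation of each library from the mean of the 6 for Tet1, Uhrf1, Zfp57 and the mean of 14 ATF4 response genes; PDTLN1 bars are red, control bars dark blue, and the panels differ in scale. Control library 1 takes the sign of PDTLN1 libraries 2 and 3 in each panel, and PDTLN1 library 1 that of control libraries 2 and 3.

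With both libraries numbered 1 left out, the remaining groups fell on opposite sides of that component, and this fit cannot tell treatment from it. Tet1 then had a log2 fold change of 0.34 (SE 0.08), an unadjusted p of 0.00221 and an edgeR adjusted p of 0.103. Uhrf1 had -0.15, an unadjusted p of 0.0295 and an edgeR adjusted p of 0.237. None of the 9 passed there, where 0.652% of genes did (91 genes), and 2 of 9 had an unadjusted p under 0.05, where 17.4% of genes did. With the component as a covariate, the log2 fold change of Tet1 was 0.00 and that of Uhrf1 0.00, and Dnmt3b had -0.20 with an SE of 0.05, an unadjusted p of 0.00149 and an edgeR adjusted p of 0.448. None of the 9 passed in that fit either, where 0.0578% of genes did, and Dnmt3b was the 1 of 9 with an unadjusted p under 0.05, where 6.14% of genes were.

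The genes with the most similar course over the 6 libraries were found as the smallest root mean square difference of centred log2 CPM among genes of at least 10 CPM. The nearest to Uhrf1 was Atad2, a chromatin ATPase of S phase cells, at 0.0113 log2 units, and the nearest to Dnmt1 was Mybbp1a, a nucleolar protein, at 0.00609. The nearest were Zfp628 to Tet1 (0.0183), Ppp2r4 to Dnmt3b (0.0183), Got1 to Dnmt3a (0.0141), Tbc1d17 to Tet2 (0.0215) and Cep41 to Tet3 (0.0349). Zfp667 was nearest to Tdg (0.0782) and Rgs11 to Dnmt3l (0.190). With 9928 or 9929 candidates and 6 libraries, near matches occur for any course, and the differences describe these libraries only.

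Partner genes of the pathway were counted in lists chosen by role, and 0 passed edgeR's or DESeq2's adjustment in any of them. For comparison with each list, 49.7% of all tested genes lay above 0. An unadjusted p under 0.05 was held by 3.99% of them with edgeR and 2.65% with DESeq2. No list was tested as a whole. The list of methyl-CpG readers included genes of the methyl-CpG-binding domain family such as Mbd3, whether or not each binds methylated CpG. Of its 10 genes, 4 lay above 0 and 6 below, with a median of -0.05 on the log2 scale. In this list 1 gene had an unadjusted p under 0.05 with each tool. That was Zbtb4, a zinc finger protein that binds methylated CpG, at 9.39, 13.8 and 11.02 CPM in PDTLN1 libraries, against 4.51, 8.44 and 9.23 CPM in control libraries. These groups did not overlap, by a narrow margin, and the log2 fold change was 0.62 (SE 0.26). Without control library 1 it was 0.37, with an unadjusted p of 0.0993. Mbd3, a subunit of the NuRD complex, had a log2 fold change of -0.11. Of the relatives Uhrf2 and Trdmt1, an RNA methyltransferase, both lay above 0, at 0.08 and 0.16.

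Of 25 tested maintenance and recruitment partners, 7 lay above 0 and 18 below, with a median of -0.03. The 2 with an unadjusted edgeR p under 0.05, and 0 with DESeq2, were the histone H3 lysine 36 methyltransferases Nsd1 and Setd2, whose marks are bound by Dnmt3a and Dnmt3b. Nsd1 had 172, 212 and 201 CPM in PDTLN1 libraries, against 180, 173 and 157 CPM in control libraries, a log2 fold change of 0.20 (SE 0.09). Setd2 had 209, 241 and 213 CPM in PDTLN1 libraries, against 209, 197 and 183 CPM in control libraries, a log2 fold change of 0.17 (SE 0.07). Without PDTLN1 library 2 it was 0.10 for Setd2, with an unadjusted p of 0.174. In both, PDTLN1 library 1 lay within or next to the control values, so the groups overlapped. The H3 lysine 9 methyltransferase Ehmt2 stood at -0.13. Dppa3, an oocyte and germ cell factor that displaces Uhrf1, had at most 3 counts in any library.

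Of 16 tested genes of base excision repair and deamination, 6 lay above 0 and 10 below, with a median of -0.10. Ung, the uracil glycosylase, was the 1 with an unadjusted edgeR p under 0.05 (0 with DESeq2), at 54.0, 46.3 and 43.0 CPM in PDTLN1 libraries, against 57.8, 54.3 and 56.6 CPM in control libraries. The groups did not overlap, with PDTLN1 library 1 just below control library 2, and the log2 fold change was -0.24 (SE 0.10). The ligase Lig3 stood at 0.12 and the oxidised-base glycosylase Nthl1 at -0.29. Of 14 tested Tet cofactors and partners, 7 lay above and 7 below 0, with a median of 0.00 and 0 at an unadjusted p under 0.05 with either tool. The isocitrate dehydrogenases Idh2 and Idh3g, which belong to the supply of 2-oxoglutarate that Tet enzymes use, had -0.16 and -0.14. Idh1, Idh3a and Idh3b, of the same family, had 0.02, -0.01 and 0.04. Cxxc5, which encodes a CXXC zinc finger protein, had -0.18.

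Of 16 tested genes of the methyl donor cycle, 7 lay above 0 and 9 below, with a median of -0.03 and 2 at an unadjusted p under 0.05 with each tool. Ahcyl2, which encodes a protein related to S-adenosylhomocysteine hydrolase, had 24.2, 26.7 and 24.9 CPM in PDTLN1 libraries, against 24.9, 50.4 and 48.3 CPM in control libraries. Control library 1 thus sat at the PDTLN1 level and the other controls well above; the log2 fold change was -0.71 (SE 0.25), with an edgeR adjusted p of 0.989. Without control library 1 it was -0.97 with an edgeR adjusted p of 0.0128, and in that fit 13 of 14031 tested genes passed. Leaving out the only control that overlaps widens the gap by choice, so that adjusted p adds no support for a difference. Control libraries 2 and 3 lie on the same side of the first principal component, at 14.2 and 19.8, and PDTLN1 libraries 2 and 3 on the other. The part of that component in the values of Ahcyl2 was not tested. Over the alternatives, the adjusted p of Ahcyl2 spanned 0.00897 to 1.00. Its relative Ahcyl1 had 145, 142 and 151 CPM after PDTLN1, against 143, 120 and 111 CPM in controls, a log2 fold change of 0.23 (SE 0.09), or 0.15 without control library 3. Shmt1, a serine hydroxymethyltransferase, stood at -0.15.

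Germline genes that DNA methylation is known to silence in mouse were mostly at or near 0. Of 19 in the table, 8 had 0 counts in all 6 libraries and 14 at most 3 counts in each. Of all 34745 genes, 21269 had a count in at least 1 library, so genes without counts were common. Whether the germline genes differ from other genes in this was not tested. The 3 with enough counts to test were Sycp3, Tex19.1 and Brdt, none with an unadjusted p under 0.05. Sycp3, a protein of the meiotic chromosome axis, had 31.4, 26.9 and 35.4 CPM in PDTLN1 libraries, against 31.2, 39.5 and 38.6 CPM in control libraries. Its log2 fold change was -0.22 (SE 0.13), and -0.13 without PDTLN1 library 2. Tex19.1, with 11 to 39 counts per library, stood at 0.39 (SE 0.47), but at 1.13 without control library 2 and 0.06 without control library 3. Brdt stood at -0.09, and at 0.08 without control library 2.

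Replication genes, set beside Dnmt1 and Uhrf1, lay below 0 in 14 of 16, with a median of -0.04. Of all tested genes, 49.7% lay above 0, and a shift of the 16 was not tested. Of the 16, 1, Mcm7, had an unadjusted p under 0.05 with each tool. The share over all tested genes was 3.99% with edgeR and 2.65% with DESeq2. Mcm7, a subunit of the replicative helicase, had 306, 339 and 303 CPM in PDTLN1 libraries, against 363, 344 and 369 CPM in control libraries, with no overlap and a log2 fold change of -0.18 (SE 0.06). Gins2 and Rfc3, of the helicase complex and the clamp loader, had -0.15 and -0.14. The mean of the 16 lay at -0.06, 0.00 and -0.04 (log2, centred on the 6 libraries) in PDTLN1 libraries 1 to 3, and at 0.02, 0.02 and 0.05 in control libraries 1 to 3. Among pluripotency markers, Utf1, a chromatin factor of embryonic stem cells, had 59.3, 61.8 and 50.2 CPM after PDTLN1, against 77.2, 73.1 and 73.0 CPM in controls, a log2 fold change of -0.38 with an unadjusted p of 0.00248 and an edgeR adjusted p of 0.989. Pou5f1 and Nanog, of the core pluripotency network, had -0.11 (SE 0.06) and -0.12 (SE 0.11). Sox2, of the same network, had 0.03 (SE 0.24). Of the 8 markers, 2 lay above 0 and 6 below.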

How the data were processed

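Gene counts and FPKM of 3 PDTLN1 and 3 control libraries were deposited by the authors in 1 table; per the labels' protocols, libraries were made with an Illumina TruSeq RNA kit. The deposited counts are whole numbers without normalization, as their header names them. Levels between genes also used FPKM, which the authors computed with gene lengths of their own. Bowtie 0.12.2 and the builds mm8 and mm9 are named in the submitters' processing notes without a role; which program counted reads, with what annotation, strand setting and rule for multiple matches, is not given in the sources used here. Of 34267 gene IDs found in GENCODE M21 (GRCm38), 80.8% had the same position.

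Counts were tested with edgeR 4.0.16 in R 4.3.3: filterByExpr (13836 genes kept), TMM scaling, robust glmQLFit and glmQLFTest, two-sided, with Benjamini-Hochberg adjustment over all tested genes and a threshold of 0.05. CPM use scaled library sizes. SE is the log2 fold change over the square root of F, and 95% intervals use the degrees of freedom of that test. Log2 CPM for patterns had a prior count of 2. Copies of each gene were sought with BLAST 2.17.0 (at least 90% identity over 300 bases). Steps were tested on simulated data. DESeq2 1.42.0, the replicate number as a block, other scalings, filters and thresholds, left-out libraries and the first principal component as a covariate were alternatives.

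Named are all 9 genes, the 3 smallest p of each list, and the gene nearest in course to each of the 9, except for lists of markers and stress genes, given by their sums or means. A gene that this rule names is not reported here. Others were singled out after their values were seen. The members, lists and alternatives were chosen with earlier results of these data known.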

Additional observations from a re-analysis of the deposited data

How the results depend on the processing

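None of the 9 genes passed an adjusted threshold of 0.05 (or 0.1, where that was the alternative) in any of the 15 alternatives; DESeq2 gave no adjusted p for Dnmt3l. Dnmt3a, Dnmt3b and Dnmt3l stayed below 0 and Tet1 and Tet2 above 0 in all 15, with Dnmt3b at -0.21 to -0.07, Dnmt3l at -1.03 to -0.61 and Tet1 at 0.00 to 0.34. The sign changed for Dnmt1 and Tet3 in 3 alternatives each and for Uhrf1 and Tdg in 1 each, none of which had passed. Tdg, at 0.12 in the fit described, ran from -0.105 without PDTLN1 library 3 to 0.278 without PDTLN1 library 2. The cause was not tested. Over all tested genes, 3 passed in the edgeR fit described, 1 with the replicate number as a block, 2 to 13 with 1 library left out (8 for PDTLN1 library 1, 6 for PDTLN1 library 2, 13 for control library 1, 5 for control library 3), 14 with DESeq2, 8 with no filter beyond a count in 1 library, 8 when the first principal component was a covariate, and 91 with both libraries numbered 1 left out; the cause was not tested. Deviations from the group means, across genes, had r of -0.36 (number 1), -0.14 (number 2) and -0.10 (number 3). No library correlated best with its own number. With 3 libraries per group and a first component that crosses the labels, these values cannot settle whether equal numbers mark shared cultures. The block changed no call among the 9, but none had passed without it. Dnmt3l, with 9 to 22 reads per library, is limited by depth.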
